A study of Mus musculus with 19 samples.

Results

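White adipose tissue is described here by 1 RNA sequencing library, set against 6 other tissues that had 1 library each. It is 1 of 19 libraries in the series, and it was chosen by its label alone, so no measured value took part in the choice. The study asked how Musclin, a hormone-like protein made by skeletal muscle, acts on fat and heat production. The tissue libraries came from C57BL/6J wild type (WT) mice on chow diet, with no stated treatment, and set white adipose beside brown adipose, brain, heart, liver, tibialis anterior muscle and small intestine. Neither the age of these mice nor the fat depot behind the white adipose label is given in the labels. The other 12 libraries were from cold-exposed male mice on chow diet at 5 months of age (8 °C for 1 week): inguinal white adipose tissue (iWAT) and brown adipose tissue (BAT) of WT mice and of MCK-Musclin mice, in which the muscle creatine kinase promoter drives a Musclin transgene in skeletal muscle, with 3 libraries a group. The paper describes RNA isolation with a commercial kit for white adipose tissue and with TRIzol for the other tissues, without naming the sequenced libraries. If these were treated so, tissue and extraction method cannot be told apart in any comparison of white adipose below. Values are FPKM, the fragments mapped to a gene scaled to its exon length and to the depth of its library, so that levels can be compared between genes. With 1 library a tissue there is no replicate check within the 7 tissues, and every difference there is a description of 2 or more libraries, with no test.

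The white adipocyte stores triglyceride in 1 large droplet and releases fatty acids by lipolysis when adrenergic signals arrive. It is also an endocrine cell: leptin reports fat stores to the brain, adiponectin acts on liver and muscle, and resistin is a further secreted protein of mouse fat. Brown adipocytes hold many small droplets and many mitochondria, and burn fatty acids for heat through uncoupling protein 1. Beige adipocytes are a separate, inducible type of heat-producing fat cell that appears in white depots in the cold.

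The 3 genes that define the tissue were all highest in white adipose. *Adipoq*, which encodes adiponectin, measured 1699 FPKM in white adipose, 534 in brown adipose and between 0.0447 and 0.714 in the other 5 tissues. *Lep*, which encodes leptin, measured 567 FPKM in white adipose, 73.2 in brown adipose and at most 0.239 elsewhere. *Retn*, which encodes resistin, measured 312 FPKM in white adipose, 7.72 in brown adipose, 0.494 in small intestine and was listed at 0 in muscle, heart, liver and brain. White adipose thus had all its defining markers, and the 3 genes split the fats to different degrees: on the log2(FPKM + 1) scale the distance from white to brown adipose was 1.67 for *Adipoq*, 2.94 for *Lep* and 5.17 for *Retn*. Of the 3, *Adipoq* therefore stayed under the 4-fold limit used below (though not as TPM or after quantile normalization, at 2.43 and 2.22) and marked both fats, while *Retn* had the widest distance between the fats. *Retn* was nevertheless also over the other 5 tissues in brown adipose, by 2.54 (log2), and counts among the genes of both fats below. The cold iWAT libraries of WT mice, which come from other mice and a separately made table, had *Adipoq* at 998, 1099 and 1068 FPKM, *Lep* at 179.7, 163 and 151, and *Retn* at 705, 619 and 662. Their cold BAT counterparts had *Retn* between 17.004 and 32.0 FPKM, far under every iWAT library.

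The RefSeq promoters of these genes and of *Sult1e1*, the gene that stood highest above all other tissues, are shown because their starts differ in the short elements they carry. Each run holds 250 bases before and 50 bases after the RNA start on build GRCm38.p6, read 5′ to 3′ on the gene's strand. Capitals mark CCAAT or its reverse complement, the C/EBP palindrome TTGCGCAA (C/EBP factors are adipogenic regulators), and TATAA on the gene's strand. The motifs do not overlap in these runs.
Adipoq, chr16:23146286-23146585, plus strand: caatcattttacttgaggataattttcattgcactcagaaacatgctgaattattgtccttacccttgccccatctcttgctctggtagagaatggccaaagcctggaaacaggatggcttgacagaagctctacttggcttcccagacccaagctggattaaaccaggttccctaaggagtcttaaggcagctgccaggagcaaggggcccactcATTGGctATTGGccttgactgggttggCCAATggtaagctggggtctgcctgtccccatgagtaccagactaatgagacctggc
Lep, chr6:29059971-29060270, plus strand: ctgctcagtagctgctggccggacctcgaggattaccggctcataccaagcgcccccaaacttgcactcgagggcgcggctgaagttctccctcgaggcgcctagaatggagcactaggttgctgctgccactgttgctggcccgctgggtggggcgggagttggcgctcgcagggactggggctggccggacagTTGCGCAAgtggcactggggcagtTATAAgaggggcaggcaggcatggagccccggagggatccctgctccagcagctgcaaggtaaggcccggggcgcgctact
Retn, chr8:3655520-3655819, plus strand: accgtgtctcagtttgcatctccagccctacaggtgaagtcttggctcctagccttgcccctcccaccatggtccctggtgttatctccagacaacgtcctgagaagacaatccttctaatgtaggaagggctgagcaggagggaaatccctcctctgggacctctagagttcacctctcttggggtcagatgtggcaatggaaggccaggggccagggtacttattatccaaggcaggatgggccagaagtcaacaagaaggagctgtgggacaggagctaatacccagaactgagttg
Sult1e1, chr5:87591562-87591861, minus strand: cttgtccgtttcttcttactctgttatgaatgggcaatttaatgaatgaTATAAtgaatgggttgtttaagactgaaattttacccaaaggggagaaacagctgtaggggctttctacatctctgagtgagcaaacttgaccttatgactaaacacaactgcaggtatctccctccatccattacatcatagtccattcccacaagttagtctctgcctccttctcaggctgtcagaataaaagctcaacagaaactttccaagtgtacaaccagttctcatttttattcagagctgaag
*Adipoq* had CCAAT letters beginning 34, 27 and 7 bases before the start. *Lep* had the C/EBP palindrome 55 bases and TATAA 31 bases before the start, and *Retn* had none of the 3 motifs in this window. The palindrome occurred in 0.183% of all 32851 promoters of the same length, CCAAT in 37.4% and TATAA in 17.5%. Of the 136 promoters matched to 114 of the genes over every other tissue (defined next), 1 held the palindrome, 44 (32.4%) held CCAAT and 23 (16.9%) held TATAA, shares that were not set against chance.

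Of 55573 genes in the tissue table, 14692 had a mean of at least 1 FPKM over the 7 libraries and were compared. In white adipose, 168 of them (1.14%) were at least 4-fold over the highest of the other 6 tissues on the log2(FPKM + 1) scale, and 3 (0.0204%) were at least 4-fold under the lowest. The same count over every other tissue was 22 for brown adipose, 70 for heart, 128 for muscle, 434 for liver, 820 for small intestine and 1161 for brain. White adipose was the highest of the 7 tissues for 3129 genes (21.3%). The sum of FPKM differed between libraries, from 393682 in brain to 711437 in brown adipose, and the 10 most abundant genes held 16.98% of it in white adipose against 52.4% in brown adipose. Mitochondrially encoded genes held 13.3% of the sum in white adipose, the lowest share of the 7, against 53.8% in brown adipose. The median gene was 0.50 higher (log2) in white than in brown adipose as deposited, and 0.02 higher after median-ratio scaling, which sets the median gene equal across libraries. After that scaling 77 genes were over every other tissue, all 77 among the 168. Depth is known only in relative terms. Low FPKM values fell on steps that put the depth of the other 6 libraries at 0.993 to 1.14 times that of white adipose.

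The gene with the largest margin was *Sult1e1*, an estrogen sulfotransferase, at 109 FPKM in white adipose, 0.238 in brown adipose, 0.0898 in liver and 0 in the other 4 tissues. *Hoxc8*, a homeobox gene of the trunk, followed at 205 FPKM against at most 3.12 elsewhere. *Sncg*, which encodes gamma-synuclein, measured 1506 FPKM in white adipose, with brown adipose at 29.1 and brain at 25.1 next. The log2 margin over the highest other tissue was 6.47, 5.65 and 5.64 for these 3 genes. They are on chromosome 5 (87575969 to 87591594), chromosome 15 (102990607 to 102994111) and chromosome 14 (34370274 to 34374789) of GRCm38.

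2 receptor genes of pituitary hormones came next after *Retn*. *Oxtr*, the oxytocin receptor, measured 44.8 FPKM in white adipose and at most 0.312 elsewhere, and *Tshr*, the thyrotropin receptor, measured 63.9 against at most 0.926. The log2 margins were 5.12 and 5.07. In cold iWAT of WT mice *Tshr* was still well detected at 24.5, 23.3 and 19.97 FPKM, while *Oxtr* stood at only 3.09, 2.12 and 2.03.

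The remaining 9 of the top 15 had margins of at least 4.17 (log2). *C7*, a terminal complement component, measured 165 FPKM against at most 4.44, and *Ccdc80*, a secreted matrix protein of adipocytes, measured 868 against 35.1 in brown adipose. *Chrdl1*, a secreted antagonist of bone morphogenetic proteins, measured 42.3 FPKM, *Serpina3c*, a serine protease inhibitor, 53.5, and *Col6a5*, a collagen VI chain, 41.2, with the highest other tissue at 1.11, 1.70 and 1.20. *Emp1*, a membrane protein, measured 228 FPKM with small intestine next at 6.87, *Osr1*, a zinc finger transcription factor, 112 with brain next at 5.27, and *Upk3b*, a uroplakin, 20.8 with heart next at 0.128. The lincRNA *Gm36860* measured 137 FPKM in white adipose, 4.08 in brown adipose and at most 0.0460 elsewhere. *C7* had the widest margin of the 9 at 4.93 and *Osr1* the narrowest, and none of the 15 lost its 4-fold margin under another pseudocount or scaling.

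**Figure D1:**
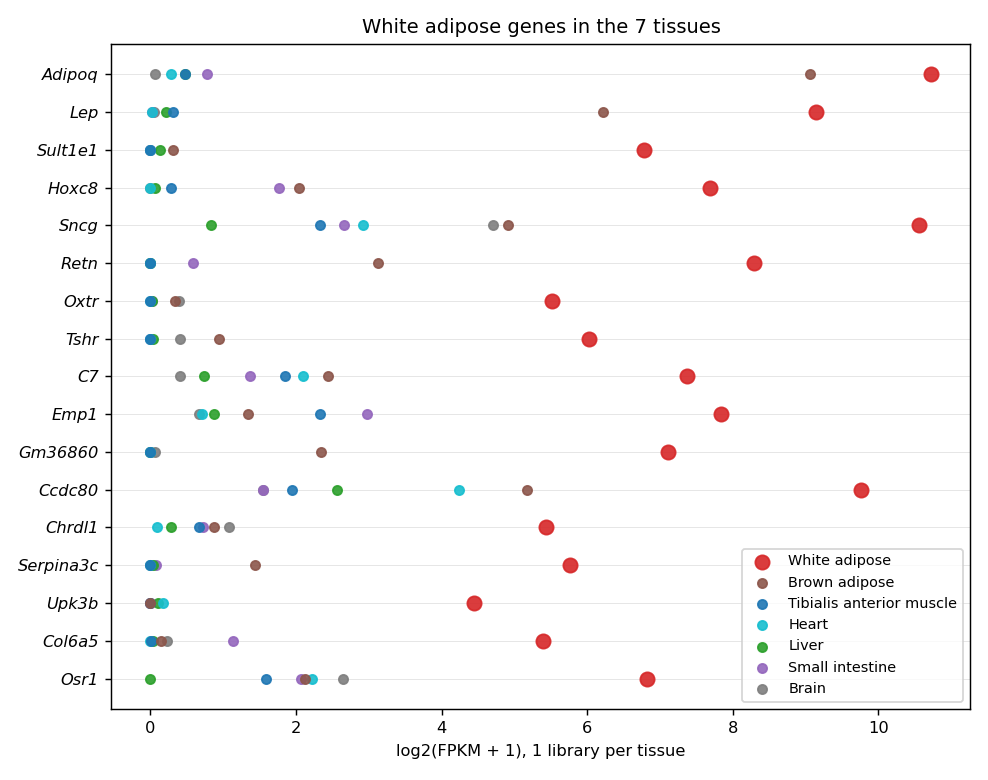
Level of Adipoq, Lep and the 15 genes with the largest margin over every other tissue, as log2(FPKM + 1) on the horizontal axis, with 1 point per tissue library (white adipose enlarged). White adipose is the rightmost point in each line, and brown adipose comes close only for Adipoq (534 against 1699 FPKM).

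Of the 168 genes, 154 were protein-coding and 6 were lincRNAs. Their level in white adipose ran from 6.67 to 10795 FPKM with a median of 39.3. For 52 of them the margin was at least 8-fold and for 18 at least 16-fold. The next highest tissue was brown adipose for 87, heart for 29, brain for 25, small intestine for 14, liver for 8 and muscle for 5. Exons of 51 of the 168 overlap another annotated gene, and because reads were aligned without strand their values may include reads of that partner.

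The genes whose pattern over the 7 tissues was most like the mean of *Adipoq*, *Lep* and *Retn* were *Glb1l2* (r = 0.99), *Cfd* (r = 0.99), *Gm15551* (r = 0.99), *Car5b* (r = 0.98) and *Dram1* (r = 0.98), by Pearson correlation of log2(FPKM + 1) over the 7 libraries among the 168 genes. These points share the 7 libraries and mostly reflect the pair of fats against the rest. *Cfd*, which encodes the serine protease adipsin, measured 3090.2 FPKM in white adipose, 638 in brown adipose and at most 2.08 elsewhere. *Car5b*, a mitochondrial carbonic anhydrase, measured 84.7 against 7.61 in brown adipose, and *Dram1*, a lysosomal membrane protein, 80.1 against 10.8. *Glb1l2* measured 45.5 against 8.06, and *Gm15551*, an antisense transcript, 53.8 against 7.597. *Glb1l2* shares exon bases with *B3gat1*, so its reads cannot be assigned with certainty. After median-ratio scaling the margins of *Glb1l2* and *Cfd* were 1.71 and 1.61 (log2), under 4-fold.

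By level alone, white adipose was led by *mt-Co1* at 10984 FPKM and *Car3* at 10795, followed by *mt-Atp8* (8471), *mt-Cytb* (8061), *Apoe* (7333), *Fabp4* (6374), *mt-Nd5* (5434), *mt-Nd4* (4786), *Gm10925* (4693) and *mt-Atp6* (4417). *Car3*, a cytosolic carbonic anhydrase, was the only one of these 10 that passed the 4-fold margin over every other tissue, with brown adipose at 2305 FPKM and liver at 1416, and its margin dropped from 2.23 to 1.56 (log2) after median-ratio scaling. *Fabp4*, the fatty acid carrier of adipocytes, was also high in brown adipose at 3719.8 FPKM. *Apoe*, the apolipoprotein of remnant particles, was higher in liver at 21983. The mitochondrial genes of this group and the pseudogene *Gm10925*, annotated on chromosome 1, were all lower in white than in brown adipose, with log2 distances of -3.12 to -1.98.

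Only 3 genes were at least 4-fold under every other tissue. *Chchd10*, a protein of the mitochondrial intermembrane space, measured 21.8 FPKM in white adipose against 118 in brain, the next lowest, and 566 in muscle. *Retreg1*, a receptor for turnover of the endoplasmic reticulum, measured 1.54 FPKM against at least 12.0, and *Mtfp1*, a mitochondrial fission protein, 1.55 against at least 9.88. The log2 distances under the lowest other tissue were -2.38, -2.36 and -2.10. The 7 genes next in order had smaller distances, from -1.54 for *Mreg* to -1.15 for *Hook1*, and among them *Ethe1*, the mitochondrial sulfur dioxygenase, measured 0.785 FPKM against at least 3.85. 2 of the 7 were mitochondrial tRNA genes, *mt-Tm* and *mt-Ti*, whose short length makes FPKM very sensitive to single reads. *Usp2* (3.69 against at least 11.4 FPKM) and *Nav2* (0.403 against at least 2.44) were the others. *Chchd10* shares exon bases with *Mmp11* and *Gm867* on the other strand. In cold iWAT *Chchd10* stood at 185, 171 and 239 FPKM, under each of the cold BAT libraries at 729, 1107 and 1121, while *Retreg1* at 4.23, 3.34 and 7.07 overlapped cold BAT.

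Against brown adipose alone, the tissue with the most similar profile (r = 0.87 across genes, which are not independent), 762 genes (5.19%) were at least 4-fold higher in white adipose and 211 (1.44%) at least 4-fold lower. This split depended on the scaling. Of the called genes 78.3% were higher in white adipose as deposited. The share was 95.0% after rescaling each library to the same FPKM sum (TPM), with 2507 over and 131 under. It was 49.6% after median-ratio scaling (341 over, 347 under) and 52.2% after quantile normalization (388 over, 355 under). White adipose was the highest tissue for 27.6%, 8.9% and 12.1% of all genes after these 3 scalings. Rescaled counts of list members below stand beside these all-gene values. The median gene was 0.50 higher in white adipose as deposited, so a distance below 0.50 is a lower standing than that of the median gene.

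*Emp1* and *Sult1e1* showed the largest distance over brown adipose (6.50 and 6.47, log2). *Penk*, which encodes the precursor of enkephalin peptides, measured 259 FPKM in white and 2.74 in brown adipose, with brain higher than either at 455. *Agt*, which encodes angiotensinogen, the precursor of angiotensin peptides, measured 105 FPKM against 0.829, close to its level in liver at 118. *Serpina3n*, a secreted protease inhibitor, likewise stood at 124 FPKM in white adipose and 123 in liver, against 1.74 in brown adipose. *Rspo1*, an R-spondin that strengthens Wnt signals, measured 89.5 against 1.24 FPKM, and *Mest*, an imprinted gene with roles in adipocyte growth, 65.7 against 0.537. The transcript *2010016I18Rik* measured 85.7 against 0.818, and *Hoxc8* and *Sncg* completed the 10. Exons of *Penk*, *Mest* and *2010016I18Rik* overlap other genes.

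*Cidea*, a protein of lipid droplet contacts, showed the largest distance under brown adipose, at 0.385 FPKM in white and 1638 in brown adipose (-10.21, log2). *Ucp1*, the uncoupling protein itself, was listed at 0 in white adipose and at 467 FPKM in brown adipose. *Cox7a1* and *Cox8b*, subunits of cytochrome oxidase found in heart, muscle and brown fat, measured 0.778 against 508 and 0.511 against 214 FPKM. *Fabp3*, a fatty acid carrier of muscle and heart, measured 6.23 against 705 FPKM, *Cpt1b*, the mitochondrial gate for fatty acids, 0.963 against 154, and *Pdk4*, which holds back glucose oxidation, 8.06 against 315. The mitochondrial tRNA genes *mt-Td*, *mt-Ti* and *mt-Tv* completed the 10. *Fabp3* and *Cpt1b* share exon bases with neighbours.

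**Figure D2:**
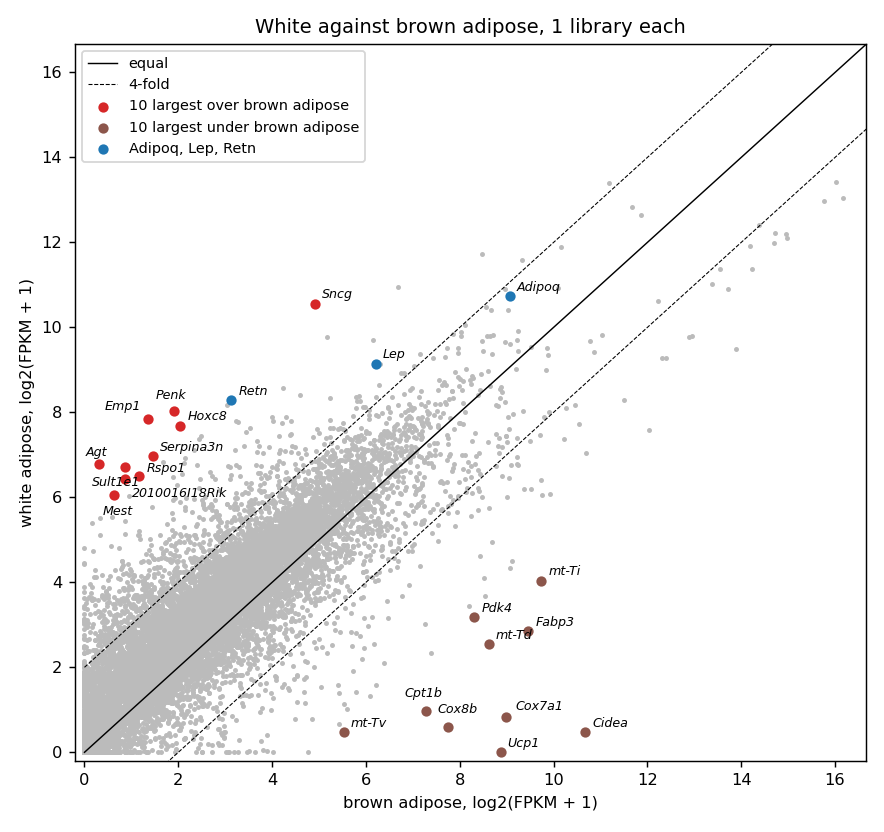
White adipose (vertical) against brown adipose (horizontal), both as log2(FPKM + 1), with 1 library each. Grey points are the 14692 genes compared, the solid line marks equal values and the dashed lines 4-fold. The 10 genes with the largest distance on each side are in red and brown, and Adipoq, Lep and Retn in blue. Cidea and Ucp1 lie at the lower edge and Sncg stands out near the top left.

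Both fats together stood at least 4-fold over the other 5 tissues for 68 genes (0.463%). White adipose was the higher fat for 52 of these, at least 4-fold so for 13, and brown adipose was at least 4-fold higher for none. Among 18 adipocyte genes, all compared, 11 belonged to this group, white adipose was the highest tissue for 14 (background 21.3%), and the median distance to the median of the other tissues was 6.37 (log2), against 0.58 over all genes. *Plin1*, which coats the large droplet, measured 885 FPKM in white and 379 in brown adipose, *Cidec*, which enlarges droplets, 1357 and 518, *Lipe*, hormone-sensitive lipase, 505 and 388, and *Pparg*, the master regulator of adipocytes, 133 and 103. *Gpd1*, which makes the glycerol backbone, went the other way at 288 and 1403. The list therefore marked fat as such more than it marked white fat. Its median over brown adipose was 1.17 as deposited and 0.51 after median-ratio scaling, when 11 of the 18 were above and 7 below brown adipose.

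Secreted adipokines varied more between the fats. Of 17 genes 16 were compared, and 5 were over every other tissue (*Lep*, *Retn*, *Cfd*, *Sfrp5* and *Fbn1*), against 1.14% of all genes. At least 4-fold over brown adipose were 7 (5.19% of all genes), and none was 4-fold under (1.44%). *Sfrp5*, a secreted Wnt antagonist, measured 33.9 FPKM in white adipose, 0.254 in brown adipose and at most 3.58 elsewhere, and *Fbn1*, which encodes fibrillin and the peptide asprosin, 23.0, 2.12 and at most 3.09. *Rbp4*, the retinol carrier, measured 221 FPKM in white and 8.38 in brown adipose but 2033 in liver, and *Rarres2*, which encodes chemerin, 273 and 88.3 with liver at 380.1. *Angptl4* and *Nampt* were lower in white than in brown adipose, at 36.0 against 78.9 and 35.5 against 59.2 FPKM. *Itln1*, which encodes omentin, was almost unmeasured in white adipose (0.0539 FPKM) and high in small intestine (903), and *Serpina12*, which encodes vaspin, was listed at 0. Of 7 receptor genes for these proteins, 6 were compared and 1 was over every other tissue: *Cmklr1*, the chemerin receptor, at 59.9 FPKM with heart next at 3.57. *Adipor2*, an adiponectin receptor, measured 135 FPKM in white adipose, 110.5 in brown adipose and 108 in liver, and *Lepr* was low at 1.12.

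The adrenergic arm of lipolysis differed between the fats by receptor. *Adrb3*, the beta-3 receptor of fat cells, measured 339 FPKM in white adipose, 23.1 in brown adipose and 3.25 in liver, a margin of 3.82 (log2). *Adrb1* was lower in white than in brown adipose, at 1.83 against 9.16 FPKM, and *Adra2a*, an inhibitory receptor, was near 0 in both. Of 13 lipolysis genes 12 were compared, and as deposited *Adrb3* was the only member over every other tissue and the only one 4-fold apart from brown adipose. After median-ratio scaling 1 was over and 2 were under brown adipose, and after quantile normalization 2 and 2. *Pnpla2*, the first lipase of the cascade, measured 731 and 932 FPKM, and *Mgll*, the last, 147 and 53.1. *Adrb3* levels in cold fat overlapped: cold iWAT of WT mice had 55.9, 93.6 and 66.9 FPKM and cold BAT 22.7, 58.5 and 42.4, all far under the white adipose library.

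Genes of lipid storage, apart from those of the droplet coat, were mostly close between the fats. In triglyceride synthesis (15 compared) 2 were at least 4-fold over brown adipose (5.19% of all genes) and 1 under (1.44%), so few that nothing is read from them. The over count was 1 after median-ratio scaling and 4 as TPM, and the median distance was 0.24, lower than the all-gene median of 0.50. *Mogat1*, a monoacylglycerol acyltransferase, measured 25.5 FPKM in white adipose and at most 0.544 elsewhere, and *Gpat3*, the acyltransferase of the first step, 55.6 against 8.13 in brown adipose. In de novo lipogenesis (16 compared) none was over and 1, *Acacb*, was under brown adipose as deposited (22.7 against 95.5 FPKM), with a median of 0.57. As TPM 4 were over, as were 2507 of all 14692 genes. *Scd1*, the stearoyl-CoA desaturase, measured 3794 FPKM in white adipose, 1148 in brown adipose and 1040.2 in liver, and *Fasn*, fatty acid synthase, 121, 71.7 and 52.7. Among 11 genes of fatty acid uptake none differed 4-fold as deposited, and 3 were over brown adipose as TPM, beside the same 2507 of all genes. *Lpl*, lipoprotein lipase, measured 1369.6 against 402 FPKM and *Cd36*, a fatty acid translocase, 906 against 416. Droplet coat genes (12 compared of 13) divided by member: 1 was at least 4-fold over brown adipose as deposited (5.19% of all genes) and 3 were under (1.44%). The count under was 3 after each scaling. *Plin4* measured 664 against 142 FPKM, *Plin2* 124 against 140.1 and *Plin5*, the droplet protein that meets mitochondria, 3.57 against 59.2. After median-ratio scaling the medians over brown adipose of triglyceride synthesis, de novo lipogenesis, lipolysis and adipogenic factors turned slightly negative, at -0.24, -0.07, -0.09 and -0.19.

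Adipogenic transcription factors and insulin response genes were mostly close between the fats. Of 14 transcription factor genes 2 were at least 4-fold over brown adipose as deposited (5.19% of all genes) and none after median-ratio scaling or quantile normalization: *Zfp423*, which commits cells to the white lineage (18.4 against 2.77 FPKM), and *Rxra*, the partner of PPAR gamma (34.9 against 6.82). *Cebpb* was under, at 25.8 against 118. Of 13 insulin response genes only *Igf1*, insulin-like growth factor 1, differed 4-fold, at 89.0 against 8.999 FPKM, with liver at 254. *Slc2a4*, the insulin-regulated glucose transporter, measured 42.4 FPKM in white adipose, 69.7 in brown adipose and 106 in muscle, and *Trarg1*, which helps it reach the surface, 199.6 in white and 128 in brown adipose with at most 1.08 elsewhere.

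The thermogenic and oxidative lists stood lowest. Of 19 brown and beige fat genes 16 were compared, 9 were at least 4-fold under brown adipose (1.44% of all genes) and 1, *Adrb3*, over (5.19%), with a median of -3.05 (log2). *Ppara*, a regulator of fatty acid oxidation, measured 1.61 against 42.0 FPKM and *Kcnk3*, a potassium channel, 4.89 against 71.1, while *Zic1*, *Lhx8* and *Otop1* were listed at 0 in white adipose and at 2.81, 2.92 and 11.4 FPKM in brown adipose. *Prdm16* (3.53 against 8.00 FPKM) and *Ebf2* (10.8 against 10.7), upstream regulators of the program, were nearer to each other. *Tmem26* and *Tnfrsf9*, proposed as beige markers, were at most 0.308 and 0.694 FPKM in any tissue. All 25 oxidative phosphorylation genes were lower in white than in brown adipose, with a median of -1.84, and the count lower than brown adipose was 25 after median-ratio and quantile scaling and 24 as TPM. At least 4-fold under brown adipose were 10 as deposited (1.44% of all genes), but 1 as TPM, 22 after median-ratio scaling and 18 after quantile normalization. Of all 14692 genes 131, 347 and 355 were under after these scalings. *Cox5a* measured 14.3 against 120.2 FPKM, *Cycs*, cytochrome c, 46.5 against 301 and *Atp5b* 1574 against 4819. White adipose was the lowest tissue for only 3 of the 25, so this list set it apart from brown adipose, heart and muscle more than from liver and brain.

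**Figure D3:**
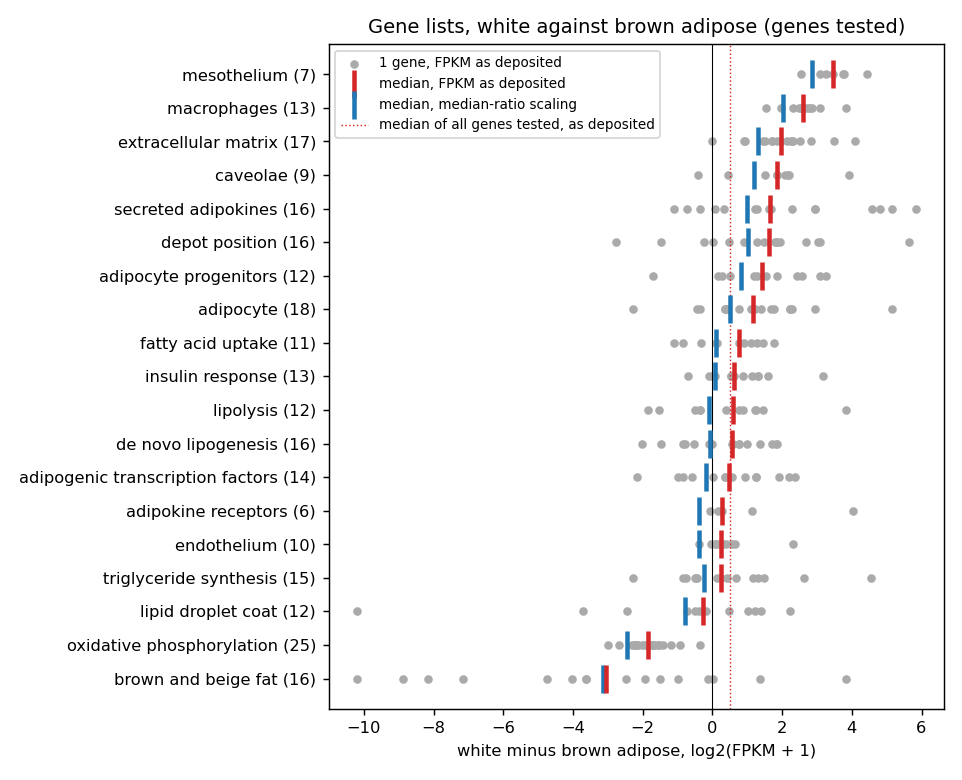
Distance of white from brown adipose for gene lists, as log2(FPKM + 1) on the horizontal axis, with the number of genes compared beside each list. Grey points are genes, red bars medians as deposited and blue bars medians after median-ratio scaling. The dotted line is the all-gene median of 0.50. Mesothelial and macrophage markers lie on the far right, oxidative phosphorylation and brown and beige fat genes on the left.

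Caveolae, the surface pits abundant on white adipocytes, were represented by 9 genes, of which 3 were over every other tissue (1.14% of all genes) and 4 at least 4-fold over brown adipose (5.19%). The latter count was 1 after median-ratio scaling and 2 after quantile normalization. *Cavin1* measured 489 FPKM against 107 in brown adipose, *Cav1* 194 against 44.7 and *Cavin3* 138 against 8.25. The muscle members *Cav3* and *Cavin4* were near 0 in white adipose, at 0.103 and 1.01 FPKM. Extracellular matrix genes were highest in white adipose for 15 of 17 (21.3% of all genes), with a median distance to brown adipose of 1.97 (1.31 after median-ratio scaling). At least 4-fold over brown adipose were 8 as deposited (5.19% of all genes), 3 after median-ratio scaling and 5 after quantile normalization. *Col15a1*, a basement membrane collagen, measured 146 FPKM with heart next at 16.2, *Dcn*, decorin, 563.8 with heart at 102, and *Fn1*, fibronectin, 196 against 10.6 in brown adipose and 343 in liver. Progenitor markers followed at 10 of 12 highest in white adipose as deposited (21.3% of all genes) and 5 of 12 after median-ratio scaling (8.9% of all genes). *Cd248* measured 107 FPKM against 11.7 in brown adipose and *Pdgfra* 12.7 against 3.70, while *Dlk1*, a preadipocyte gene, was at 0.119. In bulk tissue, more cells of a type and more RNA per cell cannot be told apart.

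All 13 macrophage genes were highest in white adipose, before and after each scaling, against 21.3% of all genes as deposited and 8.9% after median-ratio scaling. Of the 13, 11 were at least 4-fold over brown adipose as deposited (5.19% of all genes), and 7 after median-ratio scaling or quantile normalization. Of all 14692 genes 341 and 388 were over after these 2 scalings. *Lyz2*, lysozyme, measured 336 FPKM against 83.1 in small intestine and 56.9 in brown adipose, *Retnla*, a product of alternatively activated macrophages, 148 against 9.50 in brown adipose, and *Cd163*, a scavenger receptor, 45.2 against 7.07 in liver. *Csf1r*, the receptor that keeps macrophages alive, measured 29.0 FPKM with small intestine at 11.2. Endothelial genes did not separate the fats: 1 of 10, *Vwf*, was at least 4-fold over brown adipose as deposited (15.1 against 2.21 FPKM) and none after median-ratio scaling, the median distance was 0.25 as deposited and -0.38 after median-ratio scaling, and *Cdh5* measured 125 and 117.

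Most lymphoid markers were low in white adipose, yet those compared were all above brown adipose as deposited, as were 11030 of all 14692 genes. At least 4-fold over brown adipose were 1 of 4 T cell, 1 of 2 B cell and 1 of 2 lymph node genes (5.19% of all genes). After median-ratio scaling no T cell gene was. Of 10 T cell genes 4 were compared, *Cd3e* measured 1.40 FPKM and *Ccr7* 0, and cold iWAT of WT mice had *Cd3e* at 11.6, 9.57 and 12.3. Of 9 B cell genes 2 were compared. *Ms4a1* and *Cd22* were each under 1 FPKM, whereas *Ighm*, the immunoglobulin M heavy chain, measured 172 FPKM in white adipose, 21.98 in muscle, 18.1 in brain and 4.62 in brown adipose. The lymph node genes *Glycam1* and *Madcam1* were listed at 0, against *Glycam1* at 7.74, 9.35 and 9.96 FPKM in cold iWAT. *Ccl21a*, a lymphatic chemokine, measured 26.2 FPKM, but near-identical gene copies share this symbol and their reads cannot be told apart.

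Genes that record body position differed between white adipose and the cold iWAT of the same series. 16 of 20 were compared, and *Hoxc8*, *Hoxc9*, *Wt1* and *Tcf21* were at least 4-fold over brown adipose (5.19% of all genes). *Tbx5* was under it (0.122 against 6.66 FPKM), as were 1.44% of all genes. *Hoxc4*, *Hoxc6* and *Hoxa7* measured 18.4, 29.1 and 40.1 FPKM in white adipose against 4.48, 7.72 and 10.3 in brown adipose, less than 4-fold apart. *Hoxc10*, *Hoxa9*, *Tbx15*, *Shox2* and *En1* were all under 1 FPKM in white adipose. In cold iWAT of WT mice *Hoxc10* stood at 27.8, 20.2 and 23.8 FPKM, *Tbx15* at 9.53, 10.5 and 14.6 and *Shox2* at 10.1, 15.8 and 12.2. *Wt1* and *Tcf21*, known from visceral fat, measured 7.47 and 5.44 FPKM in white adipose and 0 in brown adipose, and neither is listed in the iWAT table. Only 13756 genes are listed for cold iWAT against 55487 for cold BAT, by a rule that is not stated. A gene not listed for iWAT is therefore not known to be absent there. No depot was assigned from these values.

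All 7 mesothelial genes, markers of the lining that covers organs and fat inside the body cavity, were at least 4-fold over brown adipose as deposited (5.19% of all genes) and 6 after median-ratio scaling, and 5 were over every other tissue (1.14%). *Upk3b* (20.8 FPKM), *Msln*, mesothelin (9.91), *Lrrn4* (9.72), *Upk1b* (8.62) and *Wt1* (7.47) were those 5, with the highest other tissue at 0.128, 0.0783, 0.831, 0.777 and 0.639. These 5 reached the mean of 1 FPKM only through white adipose, so their calls follow largely from the filter. The list was also chosen with earlier results of these data known, and its counts are a description only. *Krt19* and *Gpm6a* measured 12.6 and 13.9 FPKM, with small intestine at 838 and brain at 289.9 above them. Of the 7, *Lrrn4*, *Krt19* and *Gpm6a* are listed for cold iWAT, at no more than 1.92 FPKM in any WT library. The others are not listed there, which is no measured absence. The 10 epididymal genes, which could mark a neighbouring organ, were at most 0.151 FPKM in white adipose with 8 listed at 0, and of 8 mammary epithelial genes 4 were listed at 0 and the highest, *Krt8*, was at 4.23.

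**Figure D4:**
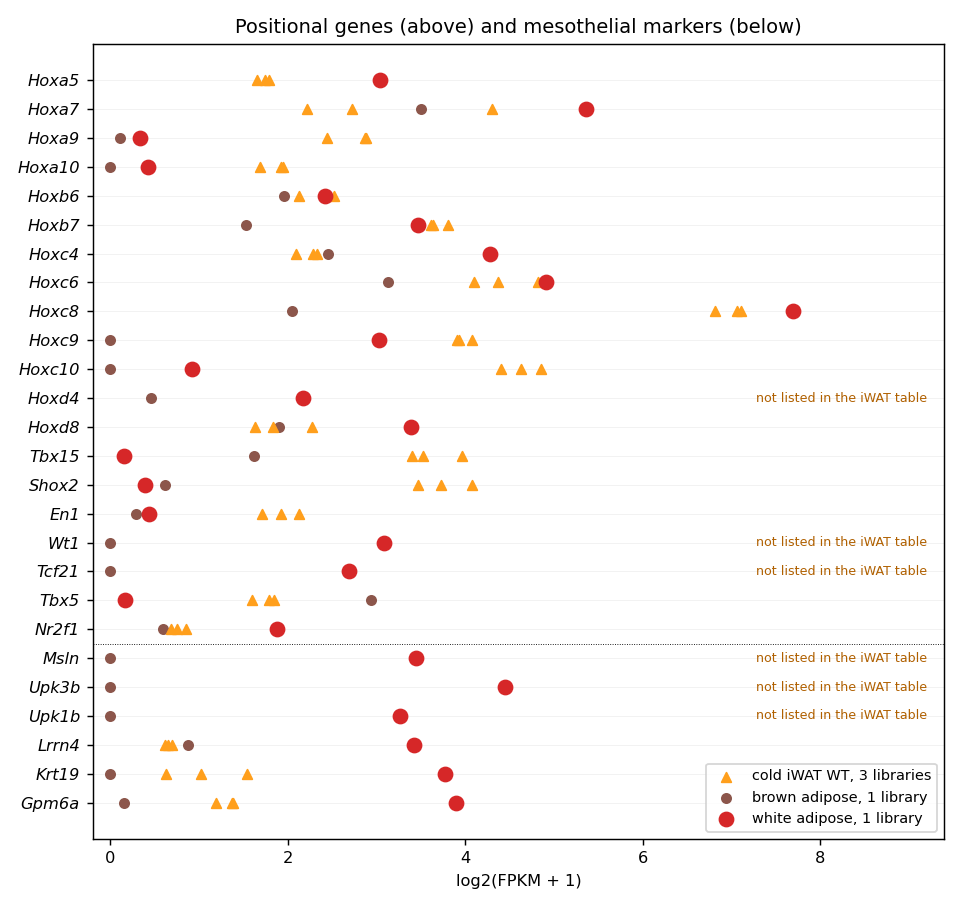
All 20 positional genes (above the dotted line) and the mesothelial markers other than Wt1 (below it), as log2(FPKM + 1), in the white adipose library (red), the brown adipose library (brown) and the 3 cold iWAT libraries of WT mice (orange triangles). Hoxc10, Tbx15, Shox2 and En1 are higher in every cold iWAT library than in white adipose, and the mesothelial markers are higher in white adipose than in any cold iWAT library listed.

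Genes of other tissues were present at small shares. The summed level of 11 fast muscle genes in white adipose was 0.273% of that in tibialis anterior, against 0.399% in brown adipose, 0.0862% in brain and 0.00290% in liver. *Tnnc2*, fast troponin C, measured 155 FPKM in white adipose and 55389 in muscle. The 6 liver genes summed to 0.152% of their liver level in white adipose and to 0.00780% in brown adipose, with *Alb* at 36.2 FPKM against 22399 in liver. Brain genes summed to 0.0336% and heart genes to 0.0392% of the level in their own tissue. White adipose was highest for 4 of 5 erythrocyte genes compared as deposited and for none after median-ratio scaling, with *Hba-a1*, an alpha globin whose near copy may share its reads, at 698 FPKM and heart next at 505. Of 5 Schwann cell genes none was higher than in brown adipose as deposited. The part of these cells in the differences above was not tested.

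The genes over brown adipose were then read in libraries that did not choose them. Of the 762 genes, 698 are listed in both cold tables and 64 are not. For 672 of the 698 (96.3%) every cold iWAT library of WT mice was above every cold BAT library. The background is high: the same held for 8946 of 12252 genes (73.0%), with a median distance of 0.76 (log2) over all genes against 2.30 for the 698. Of the 211 genes under brown adipose, 146 are listed and 65 are not. For 130 of the 146 (89.0%) every iWAT library was below every BAT library, against 9.11% of all genes. Of the 168 genes over every other tissue, 152 are listed, and 146 of them (96.1%) were above BAT in every library. The mice were exposed to cold and the tables were made separately, so these shares describe 2 sets of libraries and are no test. 1 of the 152 stood on the other side: *Emp1*, at 228 FPKM in white and 1.54 in brown adipose, measured 1.63, 3.28 and 2.54 in cold iWAT and 4.34, 4.09 and 4.87 in cold BAT. *Adrb3*, *Kcnj15*, *Pcdhgb4*, *Hacd2* and *Lrrn4* overlapped between the cold fats. These 6 genes were named after their values were seen.

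Thermogenic genes showed how far the cold iWAT differed from the white adipose library. *Ucp1*, at 0 in white adipose, stood at 130.2, 248 and 346 FPKM in cold iWAT, and *Cidea*, at 0.385, stood at 290.5, 358 and 427. The 152 genes were chosen for being high in the white adipose library, which favours it in any comparison with cold iWAT, so the next values are a description only. White adipose was at least 4-fold over every cold iWAT library for 10 of them, and after *Emp1* the widest distances were those of *Col6a5* (41.2 FPKM against at most 1.36), *Oxtr* (44.8 against at most 3.09) and *Mest* (65.7 against at most 5.47). *Agt*, chosen for standing over brown adipose, was at 105 FPKM against 3.08, 5.72 and 4.37 in cold iWAT. Temperature and mouse differ between these libraries, the depot may differ as well, and these cannot be told apart.

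In iWAT of MCK-Musclin mice after cold, few of the genes over every other tissue were called. Of 149 of the 168 that could be tested by limma, 5 were higher and 2 lower at an unadjusted p under 0.05, 3.36% and 1.34%, against a background of 13.1% higher and 3.44% lower among 12197 genes. This balance depended on the scaling: after median-ratio scaling 5 of the 149 were higher and 8 lower, and of all genes 1044 were higher and 816 lower. After Benjamini-Hochberg adjustment none of the 149, and none of all genes, passed 0.05. The median log2 difference was 0.03 for the 149 and 0.06 for all genes. *Cachd1*, a calcium channel-like membrane protein, measured 6.24, 7.71 and 6.65 FPKM in WT and 10.9, 11.8 and 10.4 in MCK-Musclin iWAT (log2 difference 0.62, SE 0.11, limma adjusted p = 0.143). *S100a4*, a calcium-binding protein of stromal cells, measured 10.4, 4.61 and 6.55 FPKM in WT and 19.0, 14.8 and 17.1 in MCK-Musclin iWAT (1.19, SE 0.25, limma adjusted p = 0.143). *Mmp12*, the macrophage elastase, measured 0.297, 0.345 and 1.03 against 2.80, 1.80 and 4.16 FPKM (1.32, SE 0.27, limma adjusted p = 0.143). *Ccl21a* and *Cpxm1* were the other 2 on the higher side and *Scn7a* and *Mmd* the 2 on the lower. The groups overlapped for *Mmd* and did not for the other 6. These genes were picked by p-value in the same libraries, so their separation is no further result.

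*Adipoq*, *Lep* and *Retn* passed neither threshold in this comparison. The log2 difference of MCK-Musclin from WT was -0.16 (SE 0.12) for *Adipoq*, -0.41 (SE 0.39) for *Lep* and -0.01 (SE 0.12) for *Retn*, with limma adjusted p = 0.532, 0.638 and 0.967. For *Ucp1*, listed at 0 in white adipose, it was -3.00 (SE 1.21, limma adjusted p = 0.282), and for *Cidea* -1.45 (SE 0.48, limma adjusted p = 0.213). Both had an unadjusted p under 0.05. Marker sums moved with the groups or with single libraries: 8 B cell genes summed to 146 to 279.8 FPKM in WT and 316 to 412 in MCK-Musclin iWAT, 10 T cell genes to 119.6 to 179.6 and 229 to 256, 5 lymph node genes, *Ccl21a* among them, to 149.7 to 327 and 347 to 563.9, and 13 macrophage genes to 927 to 967 and 943 to 1309.7. Fast muscle genes summed to 10.97, 853 and 4782 in the WT libraries and to 11.1, 163 and 193 in the MCK-Musclin ones. Some lists of fat genes were lower in MCK-Musclin iWAT without overlap. 18 adipocyte genes summed to 29649 to 32719 in WT and 26242 to 28496 in MCK-Musclin iWAT, and 14 adipogenic factors to 467 to 472 and 396 to 423. 11 genes of fatty acid uptake summed to 12049 to 12784 and 10794 to 11706, and 11 droplet coat genes to 2441 to 3234 and 2136 to 2242. The 25 oxidative phosphorylation genes were also lower without overlap, at 5381 to 5521 in WT and 4406 to 5225 in MCK-Musclin iWAT. Other fat lists overlapped. Lipolysis genes summed to 11497 to 13032 in WT and 10234 to 11853 in MCK-Musclin iWAT, and 18 brown and beige fat genes to 659 to 1176 and 212 to 734. The sums of triglyceride synthesis, de novo lipogenesis, secreted adipokine and insulin response genes overlapped too. These sums were not tested, nor was their part in the result. The share of all genes that separated the groups without overlap was not counted. Calls depended on single libraries. Without MCK-Musclin replicate 2 the 149 genes gave 20 higher and 10 lower, and all genes gave 1342 and 405. Without WT replicate 1 the 149 gave 9 and 6, with 2 past the adjusted threshold. All genes then gave 1636 and 490, with 86 past that threshold.

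**Figure D5:**
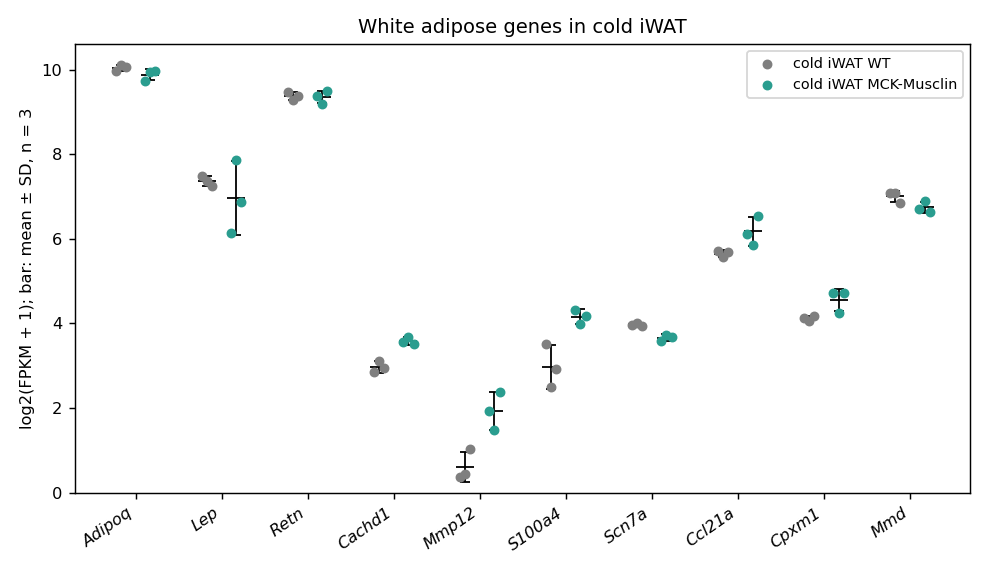
Adipoq, Lep, Retn and the 7 genes over every other tissue that passed an unadjusted p of 0.05, in cold iWAT of WT (grey) and MCK-Musclin (green) mice, as log2(FPKM + 1), with each of the 3 libraries a group as a point and bars for the mean and SD. The marker genes and Mmd overlap between the groups, and the other 6 genes do not. The 7 were picked by p-value in these same libraries, so their separation is no further result.

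The genes at the centre of the study were read last. *Ostn*, which encodes Musclin, measured 7.43 FPKM in tibialis anterior and 0.148 in white adipose. *Tfrc*, the transferrin receptor, measured 11.5 FPKM in white adipose and 31.3 in brown adipose. Of the natriuretic peptide receptors, *Npr3*, the clearance receptor, was over every other tissue at 195 FPKM, with brown adipose at 30.1 next, while *Npr1* measured 18.05 in white and 24.3 in brown adipose and *Npr2* 21.9 and 8.50. In cold iWAT of WT mice *Npr3* stood at 40.5, 52.2 and 34.6 FPKM.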

How the data were processed

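The authors made poly(A)-selected libraries with a SMART RNA-seq kit, trimmed and screened the reads (fastp, Bowtie2), mapped them to mm10 (GRCm38) with unstranded HISAT2 settings, and had StringTie derive FPKM. The submitters' processing notes give Bowtie2 2.4.1 and HISAT2 2.1.0. The deposited FPKM tables give 1 column per library, 19 in all. Columns of the authors' own comparison (fold changes, p-values, mean levels) were not used.

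The 55860 lines of the tissue table held 55573 Ensembl genes once identical repeated lines were dropped. Where 1 symbol had several genes (3 list symbols), the lowest identifier was used. Genes with a mean of at least 1 FPKM were compared as log2(FPKM + 1), which understates the change of low genes, and called at 4-fold. Coordinates, gene types and exon overlaps came from GENCODE vM21 (GRCm38). The iWAT groups were compared with limma (3.58.1; R 4.3.3; lmFit and eBayes with a trend) over all genes with a mean of at least 1 FPKM in the 6 libraries, with Benjamini-Hochberg adjustment, after a check on simulated data. P-values measure the spread between the 3 libraries a group, described in the series as biological replicates.

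The text names the 15 genes with the largest margin over and the 10 under every other tissue, the 10 over and 10 under brown adipose, the 10 most abundant, the 5 most like the markers, and members of 32 lists (332 genes). Members and lists were chosen with earlier results of these data known.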

Additional observations from a re-analysis of the deposited data

How the results depend on the processing

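The count of genes over every other tissue (168) was 109 at a mean of at least 5 FPKM, 322 as TPM, 77 after median-ratio scaling, 647 at 2-fold, 32 at 10-fold and 299 with brown adipose left out of the other tissues, and stayed within 1.5 times under the other 5 alternatives. The count under every other tissue (3) was 8 and 22 with pseudocounts of 0.1 and 0.01, 1 as TPM, 10 at 2-fold, 0 at 10-fold and 5 without brown adipose. Genes over brown adipose (762) numbered 1769 and 2265 with pseudocounts of 0.1 and 0.01, 499 at a mean of at least 5 FPKM, 2507 as TPM, 341 after median-ratio scaling, 388 after quantile normalization, 3659 at 2-fold and 125 at 10-fold. Those under it (211) numbered 352 and 513 with these pseudocounts, 131 as TPM, 347 after median-ratio scaling, 355 after quantile normalization, 630 at 2-fold and 51 at 10-fold. Genes of both fats (68) numbered 181 at 2-fold and 20 at 10-fold. The 672 genes over brown adipose that held in cold fat ranged from 673 to 680 when 1 library was left out. Leaving out a library can only keep or raise this count, so the range does not measure stability.

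For the 168 genes in MCK-Musclin iWAT, the 7 called at an unadjusted p under 0.05 became 13 after median-ratio scaling (5 higher, 8 lower). All genes then gave 1044 higher and 816 lower. With a replicate block the 7 also became 13 (8 higher, 5 lower), and all genes gave 1478 and 478. The numbers do not pair the samples: same-numbered libraries deviated together with correlations of 0.23, 0.06 and 0.11, and MCK-Musclin library 2 was closer to WT library 3. Leaving out 1 library gave 8 to 30, while of all genes 1119 to 1636 were higher and 276 to 490 lower. The causes were not tested. With 1 library a tissue, no difference among the 7 tissues has a replicate error, and absolute depth is unknown.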
